A study of Mus musculus with 8 samples.

Results

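The p53 target genes Cdkn1a, Mdm2, Gdf15, Pmaip1, Bbc3, Bax, Fas, Ccng1, Sesn1 and Zmat3 were followed in a mouse thymic epithelial cell line in which Gtf2i had been edited. They are 10 of the 22911 genes that could be named on the array, and they were read by all 14 of the 56605 probes whose transcript accession belongs to one of them. The list was drawn up with earlier results of these arrays known. The cells were TEC71, a line of medullary thymic epithelial origin grown as a monolayer. RNA was hybridized to 8 single-colour arrays in 3 groups. The labels give no replicate numbers, so replicates are numbered here within each group in the order in which the samples are listed. The control group (3 arrays) had received the nickase Cas9n with one gRNA. The knockin#1 group (3 arrays) was clone 1 and the knockin#3 group (2 arrays) was clone 3, each a single clone that carries the Gtf2i T1211A change.

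p53, encoded by Trp53, is a transcription factor that DNA damage and other stresses stabilize. It switches on genes that stop the cell cycle, start apoptosis or feed back on p53 itself, and MDM2, the product of one of its targets, marks p53 for degradation. Because several targets also answer to other regulators, a level of such an RNA is not a reading of p53 activity.

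Promoter sequences of the RefSeq table for GRCm38.p6 were searched for the p53 half-site consensus, a 10-base motif that is its own reverse complement and therefore reads alike on both strands. Each window ran from 250 bases before to 50 bases after an annotated start. The table held 13 windows of 8 members, and 5 windows of 5 members contained the half-site. Of all 32851 windows listed, 8.36% did. The stretches around the matches are shown because they place the factor's recognition motif beside genes whose levels follow, with each match in capitals.

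Cdkn1a (chr17:29090861-29090978, plus strand): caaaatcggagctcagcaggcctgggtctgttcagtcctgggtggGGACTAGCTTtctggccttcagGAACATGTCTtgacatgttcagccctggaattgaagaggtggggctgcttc
Mdm2 (chr10:117710890-117710989, minus strand): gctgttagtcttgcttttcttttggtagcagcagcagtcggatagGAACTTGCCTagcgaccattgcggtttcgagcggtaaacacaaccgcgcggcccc
Bax (chr7:45467045-45467144, minus strand): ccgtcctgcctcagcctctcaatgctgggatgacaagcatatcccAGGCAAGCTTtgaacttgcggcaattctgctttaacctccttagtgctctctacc
Ccng1 (chr11:40755417-40755516, minus strand): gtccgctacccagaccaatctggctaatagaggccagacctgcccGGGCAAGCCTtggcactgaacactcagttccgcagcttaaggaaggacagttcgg
Sesn1 (chr10:41887221-41887320, plus strand): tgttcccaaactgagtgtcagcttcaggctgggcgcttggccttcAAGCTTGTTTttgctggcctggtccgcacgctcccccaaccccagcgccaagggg

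The Cdkn1a stretch holds 2 half-sites with 12 bases between them, ending 64 and 42 bases before the start of that window. Such a pair with a gap of 0 to 13 bases occurs in 0.0731% of all windows. Cdkn1a and Sesn1 each had another window, at a different annotated start, without a half-site. The array probes were not matched to these starts, so a motif is not tied to the transcript that a probe reads. The Mdm2, Bax, Ccng1 and Sesn1 matches begin 186, 201, 185 and 173 bases before their starts. No half-site was found in the windows of Gdf15, Bbc3 and Fas, which says only that the motif is not written in these windows. A match is a description of the sequence and does not show binding.

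On the arrays, between 55.3% and 59.3% of probes were well above background, a call made by the scanner software, and the 75th percentile of the signal was 268 to 377. No spot was saturated. Levels are log2 of the processed signal after this percentile was subtracted on the log2 scale, so a level of 0 equals it. Arrays of 1 group correlated at 0.993 to 0.995 across tested probes, and a control with a knock-in array between 0.962 and 0.968. Gtf2i itself fell in both clones, with log2 differences of -0.46 (SE 0.10, adjusted p = 0.00722) and -0.59 (SE 0.11, adjusted p = 0.00399), and neither call held with the slide row as a block (adjusted p = 0.0774 and 0.121). Of its other probes, A_52_P442585 fell likewise (-0.45 and -0.46 log2) and A_55_P2040907 passed in neither clone (-0.25 log2, adjusted p = 0.262, and -0.42 log2, adjusted p = 0.0977). The array reads RNA amount and not a base change, which leaves the edit unchecked. Among markers of the labelled cell type, 13 of 16 were above background on all 8 arrays, among them Krt5, Krt8 and Epcam. Psmb11 and Pax1 were above background on none, and Aire on 3. The sums of signal that follow were not scaled to the 75th percentile, so differences in the brightness of whole arrays enter them. The summed signal of the 16 thymic epithelial markers was 138000 to 149000 in the controls, 112000 to 128000 in clone 1 and 117000 to 118000 in clone 3. That of 9 fibroblast markers was 16700 to 21000, 8050 to 10600 and 6110 to 9610, with Pdgfrb, Dcn, Lum and Thy1 above background on no array. Vim alone gave nearly all of this sum (16390 to 20690, 7918 to 10400 and 5974 to 9427). Col1a2 passed in neither clone (-0.13 log2, adjusted p = 0.803, and 0.14 log2, adjusted p = 0.807). For 7 blood cell markers the sum was 2110 to 2930, 2880 to 3550 and 2880 to 3360, with Cd8a above background on no array and Ptprc on 1. Itgam gave most of this sum (1324 to 1980, 1673 to 2220 and 1731 to 2394). It passed in neither clone (0.17 log2, adjusted p = 0.628, and 0.33 log2, adjusted p = 0.381). For 4 endothelial markers the sum was 76.4 to 84.3, 66.8 to 80.9 and 66.4 to 76.3, with Cdh5, Kdr and Tek above background on no array. Of the 13 thymic epithelial markers tested, 2 rose and 4 fell in both clones, where 15.6% and 12.2% of all genes did, and the other 7 did not pass in both. Markers that passed in both included Krt5 (-1.32 and -1.13 log2 in clones 1 and 3), Epcam (-1.10 and -1.01 log2), Cd80 (-2.31 and -2.86 log2), Pdgfra (-1.30 and -1.83 log2) and Vim (-1.16 and -1.30 log2), which fell. Cldn4 (1.52 and 1.17 log2) and Cd74 (1.28 and 0.64 log2) rose. In clone 3 Cd74 lost its call with the slide row as a block (0.72 log2, adjusted p = 0.134), with normexp (0.35 log2, adjusted p = 0.0510) and without clone 3 replicate 1 (0.51 log2, adjusted p = 0.0698). The part of these shifts in the results below was not tested, and fewer cells of a type cannot be told from less RNA per cell.

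Gdf15 and Pmaip1 were the members that rose most, Cdkn1a rose less, and Fas fell in both clones. The dimmer Mdm2 probe also fell in both. Counted by the brightest probe of each gene, 4 of the 10 members rose in clone 1 (Cdkn1a, Gdf15, Pmaip1 and Bax) and 1 fell (Fas), where 19.6% of 14719 genes rose and 17% fell. In clone 3, 5 rose (Cdkn1a, Gdf15, Pmaip1, Bbc3 and Ccng1) and 1 fell (Fas), against 18% and 15.2%. In both clones 3 rose and 1 fell, against 15.6% and 12.2% of all genes. The median log2 difference of the members was 0.31 in clone 1 and 0.37 in clone 3, beside 0.00087 and 0.02 for all genes tested. Both comparisons use the same 3 controls. By probe, 6 of the 13 tested member probes passed in clone 1 and 8 in clone 3, where 32.6% and 31.2% of 32313 probes passed. A probe or gene passed where limma's adjusted p was below 0.05.

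**Figure D1:**
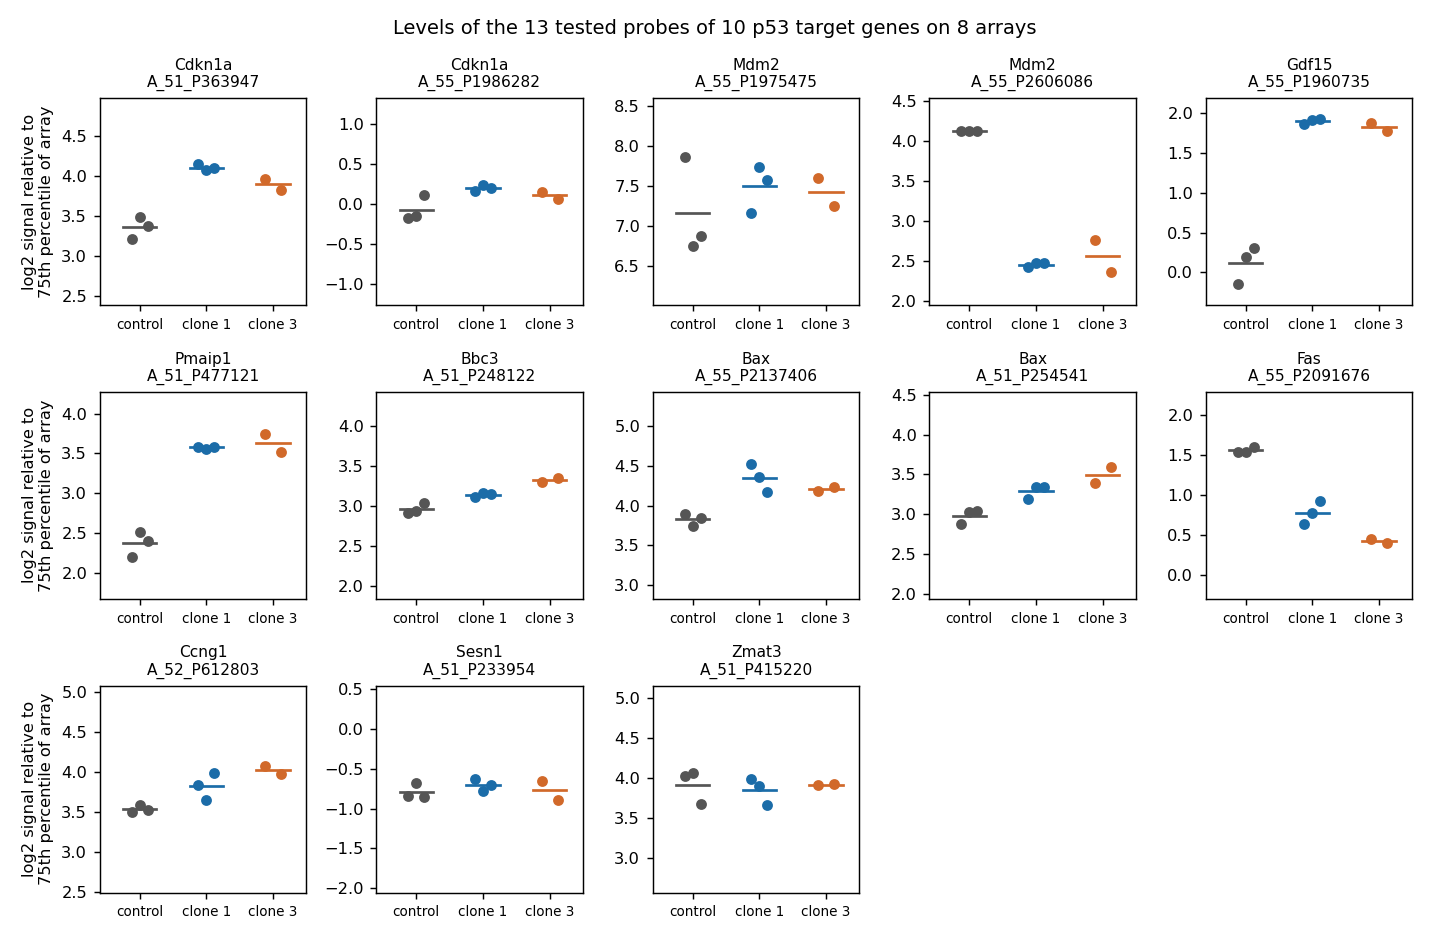
Level of each tested member probe on each array, in log2 signal minus that array's 75th percentile, for 3 control, 3 clone 1 and 2 clone 3 arrays. Points are arrays, bars are group means, and every panel spans the same range on its vertical axis. The Gdf15 controls lie between -0.15 and 0.30 and the 5 knock-in arrays between 1.77 and 1.93, while for Zmat3 the groups overlap.

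The cell cycle arm is represented by Cdkn1a, which encodes the CDK inhibitor p21, and by Ccng1, which encodes cyclin G1. On the brighter Cdkn1a probe (A_51_P363947) the controls lay at 3.21, 3.49 and 3.37, clone 1 at 4.15, 4.07 and 4.10, and clone 3 at 3.96 and 3.82. Every knock-in array was above every control. Cdkn1a rose 1.68-fold in clone 1 (log2 difference 0.75, SE 0.11, adjusted p = 0.00113) and 1.45-fold in clone 3 (log2 difference 0.54, SE 0.12, adjusted p = 0.0113). The call in clone 3 ended without clone 3 replicate 1 (0.47 log2, adjusted p = 0.0673), with normexp background correction (0.38 log2, adjusted p = 0.114) and with the slide row as a block (0.61 log2, adjusted p = 0.138).

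For Ccng1 the controls lay at 3.50, 3.59 and 3.53, clone 1 at 3.84, 3.65 and 3.99, and clone 3 at 4.07 and 3.98. The knock-in arrays were again above the controls, with clone 1 spread more widely than the others. The rise of 0.49 log2 in clone 3 passed (SE 0.13, adjusted p = 0.0205), and the difference of 0.29 log2 in clone 1 did not (SE 0.12, adjusted p = 0.0925). The call in clone 3 ended without control replicate 1 (adjusted p = 0.0556), control replicate 3 (adjusted p = 0.0506), clone 3 replicate 1 (adjusted p = 0.0968) or clone 3 replicate 2 (adjusted p = 0.0592). It also ended with the slide row as a block (0.50 log2, adjusted p = 0.229) and without the filter on dim probes (adjusted p = 0.0751), while in clone 1 it was gained with normexp (0.32 log2, adjusted p = 0.0403) and with a variance trend (adjusted p = 0.0455).

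Of the apoptosis genes, Pmaip1 encodes NOXA and Bbc3 encodes PUMA, both BH3-only proteins that act on the mitochondrial pathway, and Bax encodes a pore-forming protein of the same family. Pmaip1 levels were 2.20, 2.52 and 2.41 in the controls, 3.58, 3.56 and 3.59 in clone 1, and 3.75 and 3.52 in clone 3. The groups of knock-in and control arrays were far apart relative to their spread. Pmaip1 rose 2.30-fold in clone 1 (log2 difference 1.20, SE 0.12, adjusted p = 1.27e-04) and 2.39-fold in clone 3 (log2 difference 1.26, SE 0.13, adjusted p = 2.27e-04). It kept both calls under the 21 alternatives run for clone 1 and the 20 run for clone 3.

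Bbc3 moved far less than Pmaip1 although both encode BH3-only proteins. Its levels were 2.91, 2.94 and 3.04 in the controls, 3.11, 3.16 and 3.15 in clone 1, and 3.30 and 3.36 in clone 3. The 3 groups did not overlap, but the steps between them were small. The rise of 0.36 log2 in clone 3 passed (SE 0.11, adjusted p = 0.0320), and the difference of 0.17 log2 in clone 1 did not (SE 0.10, adjusted p = 0.205). The clone 3 call was lost in 9 of 20 alternatives, among them normexp (0.18 log2, adjusted p = 0.297), the slide row as a block (0.32 log2, adjusted p = 0.359) and leaving out control replicate 1 (adjusted p = 0.0812), control replicate 2 (adjusted p = 0.0764), clone 3 replicate 1 (adjusted p = 0.0784) or clone 3 replicate 2 (adjusted p = 0.131).

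Both Bax probes pointed upward, and each passed in a different clone. The brighter probe (A_55_P2137406) read 3.90, 3.74 and 3.85 in the controls, 4.52, 4.36 and 4.17 in clone 1, and 4.18 and 4.24 in clone 3. It rose 1.44-fold in clone 1 (log2 difference 0.52, SE 0.12, adjusted p = 0.00994) and lay 0.38 log2 higher in clone 3 without passing (SE 0.13, adjusted p = 0.0588). The dimmer probe (A_51_P254541) read 2.88, 3.03 and 3.04 in the controls, 3.19, 3.35 and 3.34 in clone 1, and 3.39 and 3.60 in clone 3. It rose 1.43-fold in clone 3 (log2 difference 0.51, SE 0.12, adjusted p = 0.0144) and lay 0.31 log2 higher in clone 1 without passing (SE 0.11, adjusted p = 0.0646). On both probes every knock-in array exceeded every control. The brighter probe passed in clone 3 when clone 1 replicate 3 was left out (adjusted p = 0.0488) and with median scaling (0.46 log2, adjusted p = 0.0266). It also passed there with normexp (adjusted p = 0.0431), a variance trend (adjusted p = 0.0250) and a fit of 1 row per gene (adjusted p = 0.0396). The mean of the Bax probes passed in clone 3 too (0.45 log2, adjusted p = 0.00542). The dimmer probe passed in clone 1 with normexp (adjusted p = 0.0444) and a variance trend (adjusted p = 0.0265). Its clone 3 call was lost without clone 3 replicate 2 (0.41 log2, adjusted p = 0.0980) and with the slide row as a block (0.35 log2, adjusted p = 0.356).

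Fas encodes a death receptor of the cell surface that triggers apoptosis when it binds Fas ligand. Counted by the brightest probe of each gene, it moved against the other called members, but the dimmer Mdm2 probe described below also fell. The measured Fas probe (A_55_P2091676) read 1.54, 1.54 and 1.60 in the controls, 0.63, 0.78 and 0.93 in clone 1, and 0.45 and 0.39 in clone 3. Controls were highest, clone 1 came next and clone 3 was lowest, without overlap. Fas fell 1.72-fold in clone 1 (log2 difference -0.78, SE 0.11, adjusted p = 8.52e-04) and 2.20-fold in clone 3 (log2 difference -1.14, SE 0.12, adjusted p = 2.37e-04). Both calls stood under the alternatives run, over which the difference ranged from -0.93 to -0.47 log2 in clone 1 and from -1.36 to -0.51 log2 in clone 3. It was smallest in size in the mean of all Fas probes, which includes the undetected one. The second Fas probe (A_52_P73385), assigned to another transcript, was not well above background on any array and gives no value.

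Gdf15, a secreted cytokine of the TGF-beta family that many stresses induce, showed the largest rise of the members. Its levels were -0.15, 0.19 and 0.30 in the controls, 1.86, 1.91 and 1.93 in clone 1, and 1.87 and 1.77 in clone 3. The controls differed among themselves more than the knock-in arrays did. Gdf15 rose 3.45-fold in clone 1 (log2 difference 1.79, SE 0.13, adjusted p = 2.17e-05) and 3.26-fold in clone 3 (log2 difference 1.70, SE 0.15, adjusted p = 7.01e-05), and both calls stood under the alternatives run. With the slide row as a block the differences were 1.75 and 1.65 log2.

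Sesn1, which encodes a sestrin that restrains mTORC1 under stress, and Zmat3, which encodes an RNA-binding zinc finger protein, did not pass in either clone. Sesn1 levels lay between -0.86 and -0.68 in the controls, between -0.79 and -0.63 in clone 1, and at -0.65 and -0.89 in clone 3. The log2 difference was 0.09 in clone 1 (95% interval -0.17 to 0.35) and 0.03 in clone 3 (-0.26 to 0.31). Zmat3 levels were 4.02, 4.06 and 3.67 in the controls, 3.98, 3.90 and 3.66 in clone 1, and 3.91 and 3.93 in clone 3. Its difference was -0.07 log2 in clone 1 (95% interval -0.39 to 0.25) and -0.0003 log2 in clone 3 (-0.36 to 0.36). The groups overlap for both genes, and these intervals do not include a rise as large as that of Pmaip1 or Gdf15.

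**Figure D2:**
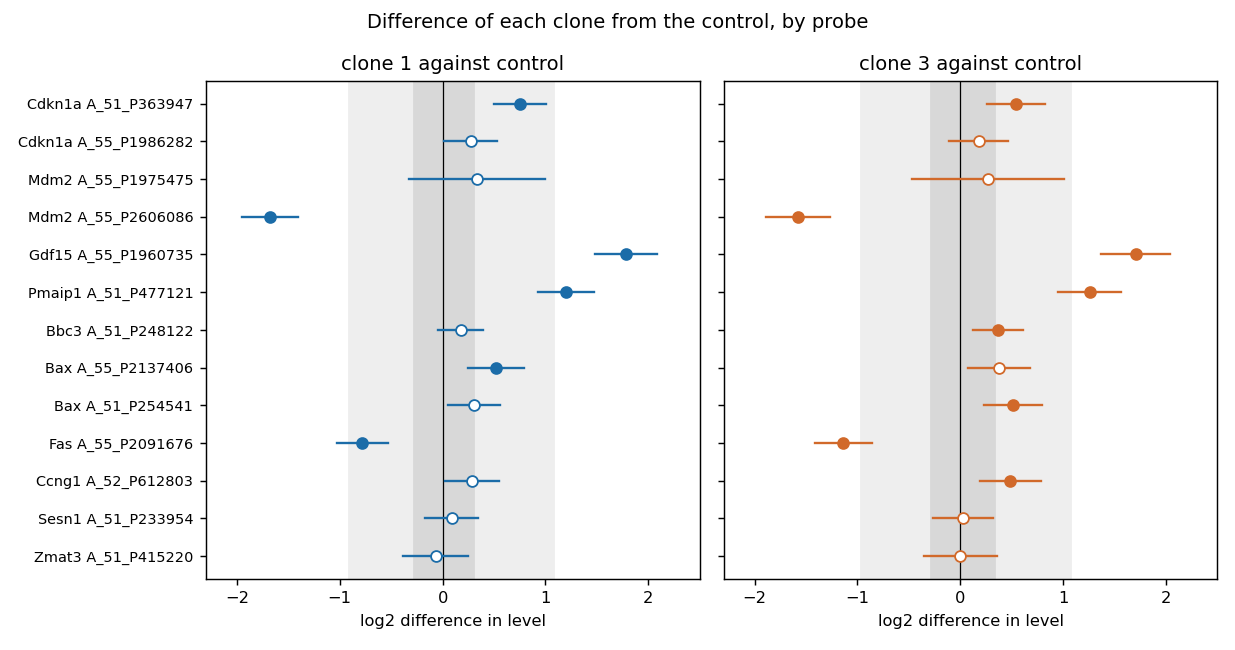
Log2 difference of clone 1 (left) and clone 3 (right) from the control for each tested member probe, with 95% intervals from limma. Filled points passed at an adjusted p below 0.05. The dark band runs from the 25th to the 75th percentile of all tested genes and the light band runs from the 5th to the 95th percentile (-0.91 to 1.08 in clone 1 and -0.96 to 1.07 in clone 3). The points of the Gdf15, Pmaip1 and dimmer Mdm2 probes lie outside the light band in both clones, and that of Fas in clone 3.

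Mdm2, the ubiquitin ligase gene of the feedback loop, gave a fall on one probe and no call on the other, although the file assigns both to the same transcript accession. The dimmer probe (A_55_P2606086) read 4.13 in each of the 3 controls, 2.42, 2.47 and 2.47 in clone 1, and 2.76 and 2.35 in clone 3. It fell 3.20-fold in clone 1 (log2 difference -1.68, SE 0.12, adjusted p = 1.89e-05) and 2.98-fold in clone 3 (log2 difference -1.58, SE 0.14, adjusted p = 6.60e-05), and kept both calls under the alternatives run. The brighter probe (A_55_P1975475) read 7.86, 6.75 and 6.87 in the controls, 7.16, 7.74 and 7.57 in clone 1, and 7.61 and 7.25 in clone 3. These groups overlap, and the spread within groups was 0.44 log2 on the brighter probe and 0.13 log2 on the dimmer one. The brighter probe lay 0.34 log2 higher in clone 1 (SE 0.29, adjusted p = 0.429) and 0.27 log2 higher in clone 3 (SE 0.33, adjusted p = 0.580). Control replicate 1, the highest of all 8 arrays, lowers this difference: without it the value was 0.68 log2 in clone 1 and passed (adjusted p = 0.0397). A fold change of Mdm2 therefore depends on the probe, and which probe follows the coding transcript was not tested. With the slide row as a block the brighter probe read 0.0049 log2 higher in clone 1 (adjusted p = 0.995) and -0.23 log2 in clone 3 (adjusted p = 0.842).

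If each gene is read by its most repeatable tested probe, a choice made after the values were seen, Mdm2 and Bax change probe. The counts are then 3 rises and 2 falls in clone 1, and 6 rises and 2 falls in clone 3. The second fall in each clone is Mdm2.

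Cdkn1a, Mdm2 and Bax had 2 tested probes each, so the log2 difference between the probes on 1 array could be set side by side over the arrays. For Mdm2 it was 3.73, 2.62 and 2.74 in the controls and between 4.74 and 5.28 on the 5 knock-in arrays, a gap that widened by 1.95 log2. For Cdkn1a it was 3.39, 3.63 and 3.26 in the controls and between 3.76 and 3.995 on the knock-in arrays, wider by 0.43 log2. For Bax it was 0.71 to 1.02 in the controls and 0.64 to 1.33 on the knock-in arrays, which overlap. These gaps are a description with no test, since they were looked at after the probes were seen to differ. The dimmer Cdkn1a probe (A_55_P1986282), assigned to another transcript accession than the brighter one, read -0.18, -0.15 and 0.11 in the controls and 0.06 to 0.24 on the knock-in arrays, which overlap. It lay 0.27 log2 higher in clone 1 (SE 0.11, adjusted p = 0.100) and 0.18 log2 higher in clone 3 (SE 0.13, adjusted p = 0.322), and it passed in clone 1 only without control replicate 3 (0.37 log2, adjusted p = 0.0453).

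**Figure D3:**
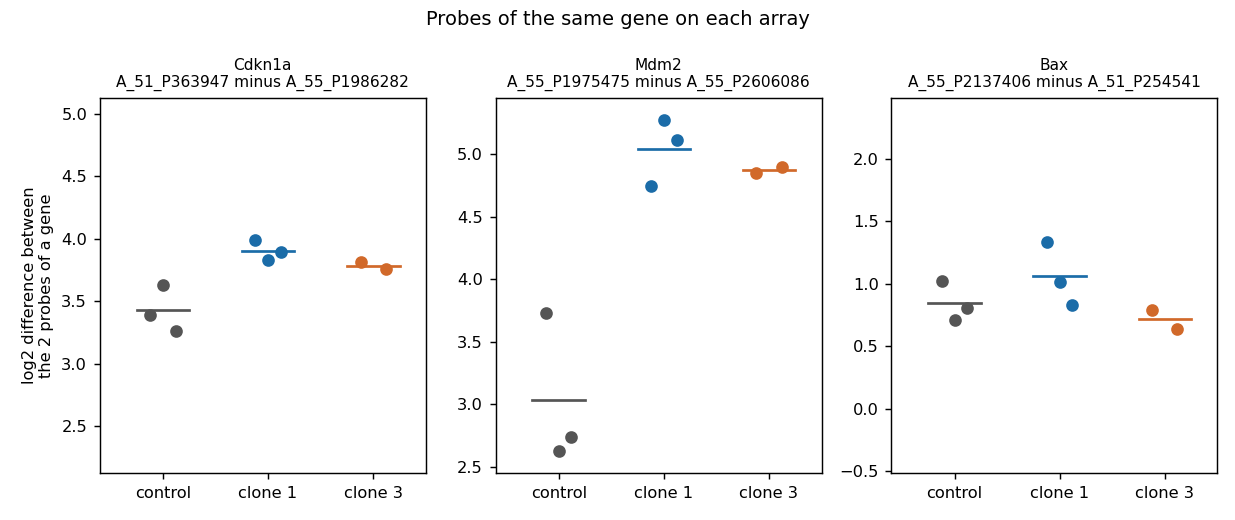
Log2 difference between the brighter and the dimmer probe of Cdkn1a, Mdm2 and Bax on each of the 8 arrays. Points are arrays and bars are group means, and each panel spans the same range. For Mdm2 the 3 controls lie between 2.62 and 3.73 and the knock-in arrays between 4.74 and 5.28, while for Bax the groups overlap.

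The clones were then set against each other. None of the 10 members passed in clone 3 against clone 1 by limma, where 0.102% of all genes did, and 1 (Fas) had an unadjusted p below 0.05. Fas lay 0.36 log2 lower in clone 3 than in clone 1 (SE 0.12, 95% interval -0.64 to -0.08, adjusted p = 0.366). For Gdf15 the difference was -0.08 log2 (95% interval -0.42 to 0.25) and for Pmaip1 0.06 log2 (-0.25 to 0.36). Bbc3 and Ccng1, which passed in clone 3 alone, differed between the clones by 0.19 log2 (-0.06 to 0.43) and 0.20 log2 (-0.09 to 0.50), so a clone-specific change is not shown for either.

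All 8 arrays lie on 1 slide. Read as row and column, the numbers in the array names, which the file headers repeat, put the controls and clone 1 replicate 1 in its first row and the others in its second row, and values with the row as a block rest on this reading. With the slide row as a block, 4 members rose and 1 fell in clone 1, and 2 rose (Gdf15 and Pmaip1) and 1 fell (Fas) in clone 3. Of all genes 10.8% rose and 10.5% fell in clone 1 with that block, and 5.44% and 4.78% in clone 3. Within row 1, where only clone 1 replicate 1 stands against the controls, the differences were 1.75 log2 for Gdf15, 1.21 log2 for Pmaip1, -0.93 log2 for Fas and -1.71 log2 for the dimmer Mdm2 probe. These are the same estimates as those for clone 1 with the block. The blocked values for clone 3 also run through clone 1 replicate 1. The brightest spike-in control on that array read 2800, where the other arrays read 17200 to 30400.

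The gene for p53 itself fell while several of its targets rose. Trp53 read 2.59, 2.51 and 2.60 in the controls, 1.96, 2.02 and 1.79 in clone 1, and 2.01 and 1.64 in clone 3. Every knock-in array was below every control, and Trp53 fell 1.56-fold in clone 1 (log2 difference -0.64, SE 0.13, adjusted p = 0.00481) and 1.67-fold in clone 3 (log2 difference -0.74, SE 0.14, adjusted p = 0.00464). With the slide row as a block the calls ended (-0.60 log2, adjusted p = 0.0650, and -0.68 log2, adjusted p = 0.145). Mdm4, the partner of MDM2 in restraining p53, differed by 0.08 log2 in clone 1 (adjusted p = 0.803) and by -0.03 log2 in clone 3 (adjusted p = 0.946) on its brightest probe, and its other 3 probes did not pass either.

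Among 22 genes for p53 and its regulators, 4 rose and 4 fell in clone 1, against 2 higher and 5 lower in clone 3, and 2 rose and 4 fell in both, with medians of -0.09 and -0.05 log2. That compares with 19.6% and 17% of all genes in clone 1, 18% and 15.2% in clone 3, and 15.6% and 12.2% in both. Trp63, the p53 relative of stratified epithelia, fell by 0.65 and 0.99 log2, but its second probe gave -0.12 log2 (adjusted p = 0.620) and -0.19 log2 (adjusted p = 0.445). The deacetylase gene Sirt1 fell by 0.62 and 0.56 log2, and Hipk2, a kinase that phosphorylates p53, rose by 0.54 and 0.68 log2. With the slide row as a block Trp63 lost both calls (adjusted p = 0.0619 and 0.0635), and Sirt1 (adjusted p = 0.200) and Hipk2 (adjusted p = 0.0656) lost that in clone 3. Over the mean of all its probes Hipk2 did not pass either.

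Other p53 targets moved in both directions. Of 36 tested among 40 listed, 9 rose and 9 fell in clone 1, against 7 higher and 5 lower in clone 3, and 7 rose and 4 fell in both. Among all genes 19.6% rose and 17% fell in clone 1, 18% and 15.2% in clone 3, and 15.6% and 12.2% in both. The targets' median difference of -0.04 log2 (clone 1) and 0.03 log2 (clone 3) was near that of all genes. Trp53inp1, which encodes a stress-induced p53 cofactor, rose by 1.02 and 0.92 log2, and the antiproliferative gene Tob1 by 1.01 and 0.85 log2. Plk2, a polo-like kinase gene, fell by 0.62 and 1.00 log2. Trp53inp1 (adjusted p = 0.127) and Tob1 (adjusted p = 0.107) lost the clone 3 call with the slide row as a block, and Plk2 lost both (adjusted p = 0.229 and 0.184). The clone 1 call of Plk2 also ended without control replicate 1, control replicate 3 or clone 1 replicate 3 (-0.56, -0.59 and -0.49 log2).

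**Figure D4:**
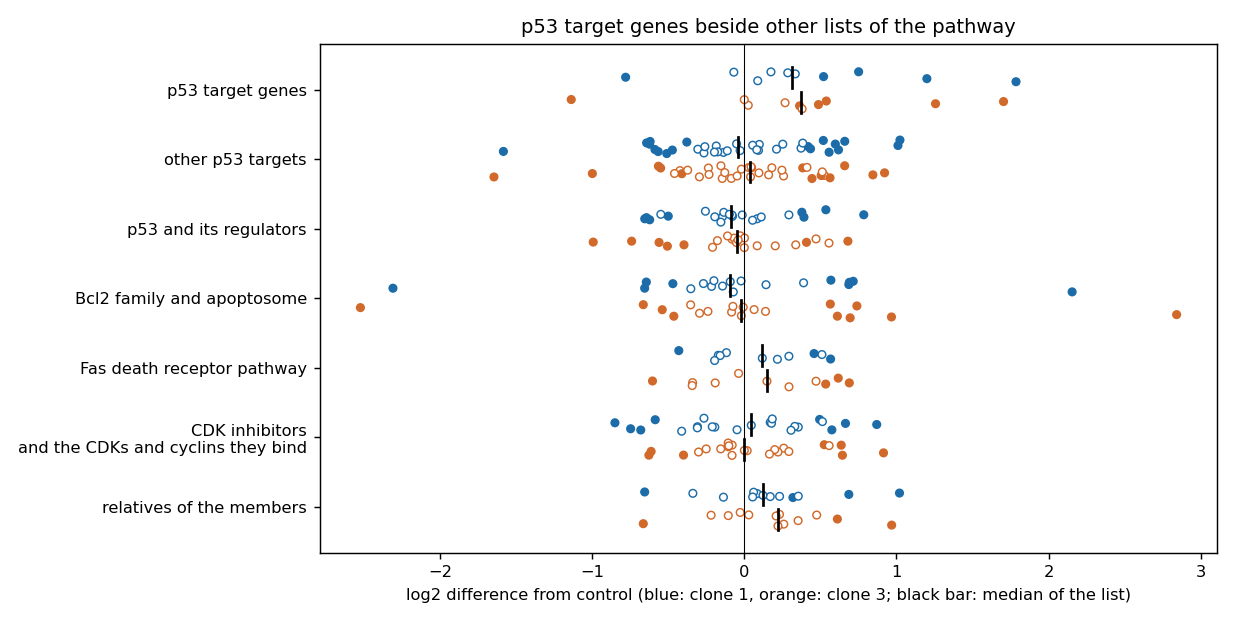
Log2 difference from the control for each tested gene of the 7 lists, read by its brightest probe, with clone 1 in blue and clone 3 in orange. Filled points passed at an adjusted p below 0.05 and black bars mark list medians. The member medians are 0.31 and 0.37, and those of the 36 other p53 targets are -0.04 and 0.03.

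Genes that work beside the apoptotic members moved in both directions. In the list of BCL2 relatives and apoptosome genes 5 of 19 tested rose and 4 fell in clone 1, against 6 higher and 4 lower in clone 3, and 5 rose and 3 fell in both, with medians of -0.09 and -0.02 log2. Bik, Bmf and Birc3 are among these and were not above background on all 8 arrays, so they were tested only through the group where they are high. Over the other 16 genes 3 rose and 3 fell in clone 1, and 4 were higher and 3 lower in clone 3. Of these 16, 3 rose and 2 fell in both clones. The shares over all genes were 19.6% and 17% in clone 1, 18% and 15.2% in clone 3, and 15.6% and 12.2% in both. Birc3, an inhibitor of apoptosis gene, fell to background in clone 3, at least 4.76-fold, and by a fitted 2.31 log2 in clone 1, where 1 of 3 arrays was above background. For such limits a value below background was set to the lowest detected level of its array. Bik, a BH3-only gene, was at background in the controls and rose at least 1.3-fold and 2.09-fold, above background on 2 arrays of clone 1 and 2 of clone 3. With normexp its calls ended (0.24 and 0.35 log2). Bcl2l2, a survival gene, lay 0.72 and 0.74 log2 higher and passed in both clones. Bmf, a BH3-only gene, was above background on 1 of 3 controls and on every knock-in array, so its fitted differences of 0.69 and 0.97 log2, which passed, are taken against controls mostly at background. With the slide row as a block neither passed in either clone. Bcl2l2 lost its clone 1 call without control replicate 1 or 3 or any 1 of the clone 1 arrays (0.49 to 0.91 log2 with 1 array left out), and its clone 3 call without any array but control replicate 2 (0.51 to 0.93 log2). Bmf lost its clone 1 call without control replicate 1 or 2, clone 1 replicate 2 or 3 or either clone 3 array (0.43 to 0.87 log2), and its clone 3 call without either clone 3 array (0.71 to 1.14 log2). In the Fas pathway list 2 of 11 tested rose and 1 fell in clone 1, 3 were higher and 1 lower in clone 3, and 2 rose in both, with medians of 0.12 and 0.15 log2. All genes gave 19.6% and 17% in clone 1, 18% and 15.2% in clone 3, and 15.6% and 12.2% in both. The 2 that rose in both were Ripk1 (0.57 and 0.53 log2) and Cflar (0.46 and 0.62 log2), the genes of a death receptor kinase and of a caspase-8 inhibitor. Both genes lost their calls with the slide row as a block and with the mean of all probes. Ripk1 also lost its clone 1 call without control replicate 1 or 3 or clone 1 replicate 3, and its clone 3 call without those controls, clone 1 replicate 2 or either clone 3 array (highest adjusted p = 0.0627 and 0.167). Cflar lost its clone 1 call without control replicate 2 or 3 or clone 1 replicate 2 or 3, and its clone 3 call without either clone 3 array (highest adjusted p = 0.0862 and 0.0575).

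Among the CDK inhibitors and the kinases and cyclins around p21, 4 of 23 rose and 4 fell in clone 1. In clone 3, 4 were higher and 3 lower, and the 4 and 3 were called in both. The medians were 0.05 and 0.00015 log2. Shares of all genes were 19.6% and 17% in clone 1, 18% and 15.2% in clone 3, and 15.6% and 12.2% in both. Cdkn2d, which encodes the CDK4 and CDK6 inhibitor p19, rose by 0.87 and 0.92 log2 and kept both calls with the slide row as a block. Rbl2, a retinoblastoma relative, rose by 0.66 and 0.64 log2. The cyclin genes Ccnb2 (-0.85 and -0.63 log2) and Ccne1 (-0.68 and -0.61 log2) fell. With that block Rbl2, Ccnb2 and Ccne1 kept the clone 1 call and lost that in clone 3 (adjusted p = 0.120, 0.0855 and 0.101).

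Among 13 tested relatives of the members, 3 rose and 1 fell in clone 1, against 2 higher and 1 lower in clone 3. In both clones 2 rose and 1 fell, and the medians were 0.12 and 0.22 log2. Of all genes, 19.6% and 17% did so in clone 1, 18% and 15.2% in clone 3, and 15.6% and 12.2% in both. Ccng2, the relative of Ccng1, rose 2.03-fold in clone 1 (log2 difference 1.02, SE 0.12, adjusted p = 2.78e-04) and 1.96-fold in clone 3 (log2 difference 0.97, SE 0.13, adjusted p = 8.20e-04), with 0.94 and 0.85 log2 (adjusted p = 0.00948 and 0.0621) under the slide row block. Bak1 and Bok, relatives of Bax, moved apart. Bak1 rose by 0.69 and 0.61 log2 and Bok fell by 0.66 and 0.66 log2. Bak1 lost both calls with that block, and its clone 3 call ended without control replicate 1 or 3 or either clone 3 array (0.49 to 0.73 log2 with 1 array left out), while Bok lost the clone 3 call with the block (adjusted p = 0.105).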

How the data were processed

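Expression was measured on 8 Agilent SurePrint G3 mouse arrays, and the deposited values are processed signals, a fluorescence intensity that, per the submitters' processing notes, the authors extracted with version 11.5.11 of Agilent Feature Extraction. Flags deposited with them mark other properties of a spot. The number of arrays limits the precision.

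Spots flagged as outliers were left out, signals were taken to log2, averaged over the spots of a probe (1 spot for each member probe) and set against each array's 75th percentile by subtraction. Probes were named through RefSeq accessions of GRCm38.p6, which named 32994 of 56605. The file headers name an older build, so probe coordinates are not given. Tests were run on the 32313 probes that some group had well above background on all its arrays. limma 3.58.1 in R 4.3.3 fitted the 3 groups together, with two-sided tests and Benjamini-Hochberg adjustment over all probes tested at 0.05. The fit was tested on simulated data. A gene is represented by its brightest probe. Alternatives were normexp on the median spot and background signals (offset 50), other scalings, filters, probe choices and variance models, array weights (statmod 1.5.0), slide row, sets of samples and a threshold of 0.01. The labels do not say that replicates were separate cultures, so p-values measure the spread between arrays.

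The members and lists were chosen with earlier results of these data known. From each list the text names up to 4 genes that passed in both clones taken by the smaller of both changes. A result for 1 gene that this rule selects is not reported here. The probe choice by repeatability was added after the data were seen.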

Additional observations from a re-analysis of the deposited data

How the results depend on the processing

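The count of changed members in clone 1 was 5 and ranged from 5 to 6 over the alternatives, also with each array left out in turn. In clone 3 it was 6. It fell to 3 with the slide row as a block and to 3 at a threshold of 0.01, and was 4 without the filter. It rose to 8 with the mean of all probes of a gene or the most repeatable probe. With median scaling, a variance trend or a fit of 1 row per gene it was 7. With 1 array left out it lay between 3 and 7, lowest without clone 3 replicate 1 (3). The count of members that differ between the clones stayed at 0. With the mean of all probes of a gene, Mdm2 turned from a difference above 0 on its brighter probe to -0.67 log2 in clone 1 (adjusted p = 0.0146) and -0.65 log2 in clone 3 (adjusted p = 0.0290), as the dimmer probe enters the mean, and Cflar turned to -0.045 log2 in clone 1 (adjusted p = 0.783). Of 29 genes besides the members (Gtf2i and those taken from the lists), all of which passed in both clones, 9 lost the clone 1 call and 19 the clone 3 call with the slide row as a block, and none changed sign there. Median scaling put the median of all genes at 0.11 log2 in clone 3. With the row as a block clone 1 rests on 1 array, clone 1 replicate 1. The clone 3 values with the block depend on that array too, because clone 1 alone has arrays in both rows. No paired analysis was possible because the labels give no replicate numbers, and those used here follow the order of the samples. The numbers in the array names were read as slide row and column. A fit on each clone's row could not be made for clone 3, which has no control in its row.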
